A study of Homo sapiens with 6 samples.

Results

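The interleukins IL-12, IL-23 and IL-18, their receptor chains and interferon gamma were followed here as 10 genes, IL12A, IL23A, IL12RB1, IL12RB2, IL23R, IL18, IL18R1, IL18RAP, IL18BP and IFNG. They were measured by 18 of 54613 probe sets, an array's unit of measurement for a transcript, and made up 10 of 19777 genes tested. The genes were proposed by pathway, with earlier results of these data known, and every probe set whose platform annotation gave one of these symbols alone was taken. For each gene, the probe set that stands for it was chosen by the highest mean intensity over the 6 arrays, so that level is a description and was not tested. The cells were KOPTK1, a cell line established from human T-ALL (acute leukaemia of T-cell precursors), kept for 48 h either in vehicle (n = 3) or in 1 µM PD0332991 (n = 3). The compound, palbociclib by its drug name, blocks CDK4 and CDK6, kinases that drive cells into S phase. The submitters call the replicates biological, all arrays come from a single line, and no genetic change separates the groups. Intensities are the authors' values on a linear scale, relative to the other RNAs of the same array, and their precision is limited by having 3 arrays a group.

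IL-12 and IL-23 are heterodimeric cytokines of myeloid cells that share the subunit encoded by IL12B, which pairs with the product of IL12A in IL-12 and with that of IL23A in IL-23. Their receptors share the chain encoded by IL12RB1, which joins the IL12RB2 chain to bind IL-12 or the IL23R chain to bind IL-23, and signal through JAK2 and TYK2 to STAT4 and STAT3. IL-18 is made as a precursor that caspase-1 cleaves, binds the IL18R1 chain and then the accessory chain IL18RAP, and signals through MYD88, while the secreted protein of IL18BP traps it. In T and NK cells, IL-12 with IL-18 is a strong inducer of IFNG, the cytokine that activates macrophages and antigen presentation.

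With PD0332991, 6 of the 10 genes rose and none fell. They were the cytokine genes IL23A and IFNG, the receptor genes IL12RB1, IL18R1 and IL18RAP, and IL18BP, whose product neutralises IL-18. The 6 calls were made with limma at an adjusted p under 0.05 over all genes, where 15.6% of genes were called higher and 13.6% lower. At an unadjusted p under 0.05, the counts in limma were 6 higher and 0 lower as well, where 20.8% of all genes were higher and 18.1% lower. The median log2 fold change of the 10 genes was 0.91, and that of all genes 0.01, on the scale of log2(intensity + 16). The offset of 16 is a pseudocount that understates the change of dim genes. IL12A, IL12RB2, IL23R and IL18 were at or near the low end of the scale in both groups and did not pass. For the 6 genes that rose, every PD0332991 array was above every vehicle array; the groups were likewise separate, in either direction, for 43.0% of all genes. In total RNA from a culture, more cells with a transcript and more transcript per cell cannot be told apart.

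**Figure D1:**
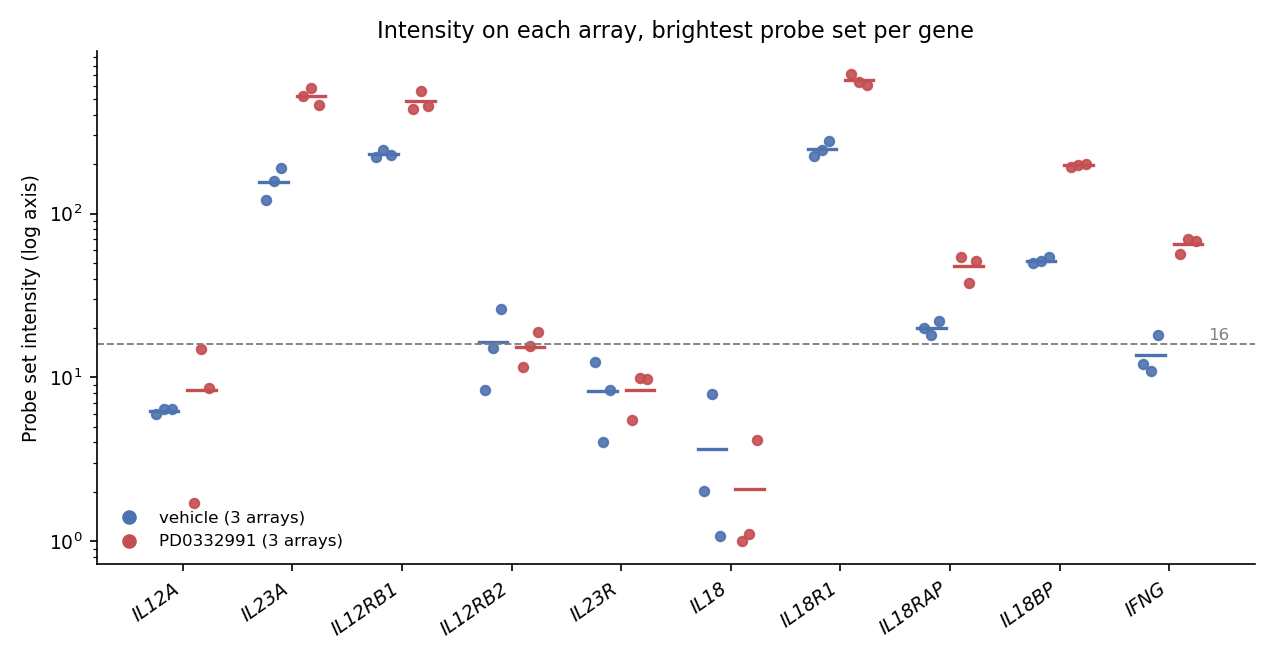
Intensity (log axis) on each array for the probe set standing for each gene, vehicle in blue and PD0332991 in red, with a line at the mean of 3 arrays and a dashed line at the pseudocount of 16. For IL23A, IL12RB1, IL18R1, IL18RAP, IL18BP and IFNG every PD0332991 array lies above every vehicle array, whereas IL12A, IL23R and IL18 lie below 16 on all 6 arrays.

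Among the receptor genes of IL-18, IL18R1 encodes the chain that binds the cytokine. Its intensity was 224, 245 and 276 on the vehicle arrays and 710.1, 633 and 609.7 on the PD0332991 arrays. All PD0332991 arrays thus lay above the highest vehicle array. The mean went from 248 ± 26.2 to 651 ± 52.5 (SD, n = 3 each). The difference on the log2 scale was 1.34 (SE 0.10, limma adjusted p = 0.000253). IL18R1 has 1 probe set, and its log2 fold change stayed between 1.20 and 1.41 in the 18 alternative settings.

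IL18RAP encodes the accessory chain without which bound IL-18 gives no strong signal. Its intensity was 19.9, 18.2 and 22.2 with vehicle and 54.2, 37.7 and 51.6 with PD0332991, so that the groups did not overlap but lay close to the pseudocount. The mean went from 20.1 ± 2.01 to 47.8 ± 8.82 (SD, n = 3 each), a ratio of mean intensities of 2.38. The log2 fold change was 0.81 (SE 0.12, limma adjusted p = 0.0032). With a pseudocount of 1 it was 1.20, and with a pseudocount of 64 it was 0.41, with the call kept under both. IL18R1 and IL18RAP are next to each other on chromosome 2 among protein-coding genes of GRCh38.p14, and IL1RL1, the gene on the other side of IL18R1, encodes the receptor for IL-33. The log2 change of IL1RL1 was −0.03 (SE 0.06, limma adjusted p = 0.784), from an intensity of 55.3 with vehicle.

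IL18BP, the secreted decoy for IL-18, rose on 2 of its 3 probe sets. On the probe set standing for it, the intensity was 49.5, 51.0 and 53.9 with vehicle and 192, 197 and 201 with PD0332991. Every PD0332991 value lay above every vehicle value, with little spread in either group. The mean went from 51.5 ± 2.23 to 197 ± 4.21 (SD, n = 3 each), and the log2 fold change was 1.66 (SE 0.05, limma adjusted p = 2.4e-05). Of its other probe sets, 224283_x_at went from 44.7 ± 4.78 to 145 ± 9.61 (SD, n = 3 each), which is a log2 change of 1.41 (SE 0.09). The remaining one, 219323_s_at, read 52.4, 67.5 and 70.2 with vehicle and 67.5, 66.6 and 67.3 with PD0332991, so that its groups overlapped. It was the brightest of the 3 in vehicle, at 63.4 against 51.5 for the probe set chosen over all 6 arrays. Its log2 fold change was 0.07, with a 95% interval from −0.17 to 0.32. The mean of the 3 probe sets gave 1.05 (limma adjusted p = 0.000118). The IDs of all 3 end in _s_at or _x_at, which marks probes that may match several transcripts.

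IL18, the cytokine gene itself, was at the bottom of the scale. It read 2.01, 7.93 and 1.07 with vehicle and 1.00, 1.10 and 4.16 with PD0332991, all below 16, and the groups overlapped. The log2 fold change was −0.11 (SE 0.15, limma adjusted p = 0.653). The files carry no detection calls, so such a value cannot be told from background.

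IL23A, the gene of the subunit particular to IL-23, rose 3.33-fold by mean intensity. Its intensity was 121, 158.5 and 191 with vehicle and 525, 583 and 458 with PD0332991. The lowest PD0332991 array was above the highest vehicle array, and both groups spread more widely than those of IL18BP. The mean went from 157 ± 34.8 to 522 ± 62.7 (SD, n = 3 each). The difference on the log2 scale was 1.65 (SE 0.17, limma adjusted p = 0.000882). The 3 other probe sets of IL23A were dim and none was called. 216857_at averaged 28.4 with vehicle and 24.0 with PD0332991, 234377_at 9.95 and 6.51, and 234865_at 5.90 and 10.9. Their log2 fold changes of −0.16, −0.20 and 0.26 had 95% intervals that include 0, and the mean over all 4 probe sets was 0.39 (limma adjusted p = 0.0096). The size for IL23A therefore rests on 220054_at.

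IL12A, the gene of the other cytokine subunit, read 5.95, 6.39 and 6.42 with vehicle and 1.71, 14.8 and 8.66 with PD0332991. All 6 values were below the pseudocount and the groups overlapped. Its log2 fold change of 0.10 (SE 0.20) did not pass in limma (adjusted p = 0.771). IL12B, the partner of both subunits and not one of the 10 genes, had means of 26.3 ± 3.96 and 29.2 ± 3.11 (SD, n = 3 each) in vehicle and PD0332991. Its difference was 0.10 on the log2 scale (SE 0.09, limma adjusted p = 0.513).

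Of the receptor genes for IL-12 and IL-23, IL12RB1 encodes the chain common to both receptors. Its intensity was 220.4, 246 and 226 with vehicle and 436, 562 and 456 with PD0332991, again without overlap. The mean went from 231 ± 13.1 to 485 ± 67.5 (SD, n = 3 each). The difference on the log2 scale was 1.01 (SE 0.11, limma adjusted p = 0.0010). A second probe set of IL12RB1, 239522_at, went from 74.7 ± 6.76 to 163 ± 21.1 (SD, n = 3 each), which is a log2 change of 0.98 (SE 0.11). On both, the highest PD0332991 value was that of replicate 2. The remaining one, 206890_at, ranged from 11.5 to 46.3 with vehicle and from 18.2 to 30.0 with PD0332991 and had a log2 fold change of 0.11 (SE 0.31).

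The receptor partners IL12RB2 and IL23R did not pass. IL12RB2, which confers response to IL-12, read 8.33, 15.01 and 26.3 with vehicle and 11.6, 15.5 and 18.9 with PD0332991, where the PD0332991 values lay inside the vehicle range. Its log2 fold change was −0.02, with a 95% interval from −0.54 to 0.49 (limma adjusted p = 0.953). IL23R read 12.4, 4.0 and 8.33 with vehicle and 5.45, 9.95 and 9.71 with PD0332991, with overlapping groups. Its log2 fold change was 0.02, with a 95% interval from −0.34 to 0.38 (limma adjusted p = 0.955). A second probe set of IL23R, 1561853_a_at, was between 1.00 and 4.67 on all 6 arrays. The differences between these genes and IL12RB1 were not tested, and IL23R and IL12RB2 are neighbours on chromosome 1 of GRCh38.p14.

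IFNG, the cytokine gene that IL-12 with IL-18 induces in T and NK cells, rose from the low end of the scale. It read 12.1, 10.9 and 18.0 with vehicle and 56.6, 70.0 and 67.8 with PD0332991. The lowest PD0332991 value was above the highest vehicle value, and 2 of the 3 vehicle values lay below the pseudocount. The mean went from 13.7 ± 3.82 to 64.8 ± 7.19 (SD, n = 3 each), a ratio of mean intensities of 4.74. The log2 fold change was 1.45 (SE 0.12, limma adjusted p = 0.000341). It was 2.19 with a pseudocount of 1 and 0.73 with a pseudocount of 64, so its size depends on the offset while the call was kept under both.

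**Figure D2:**
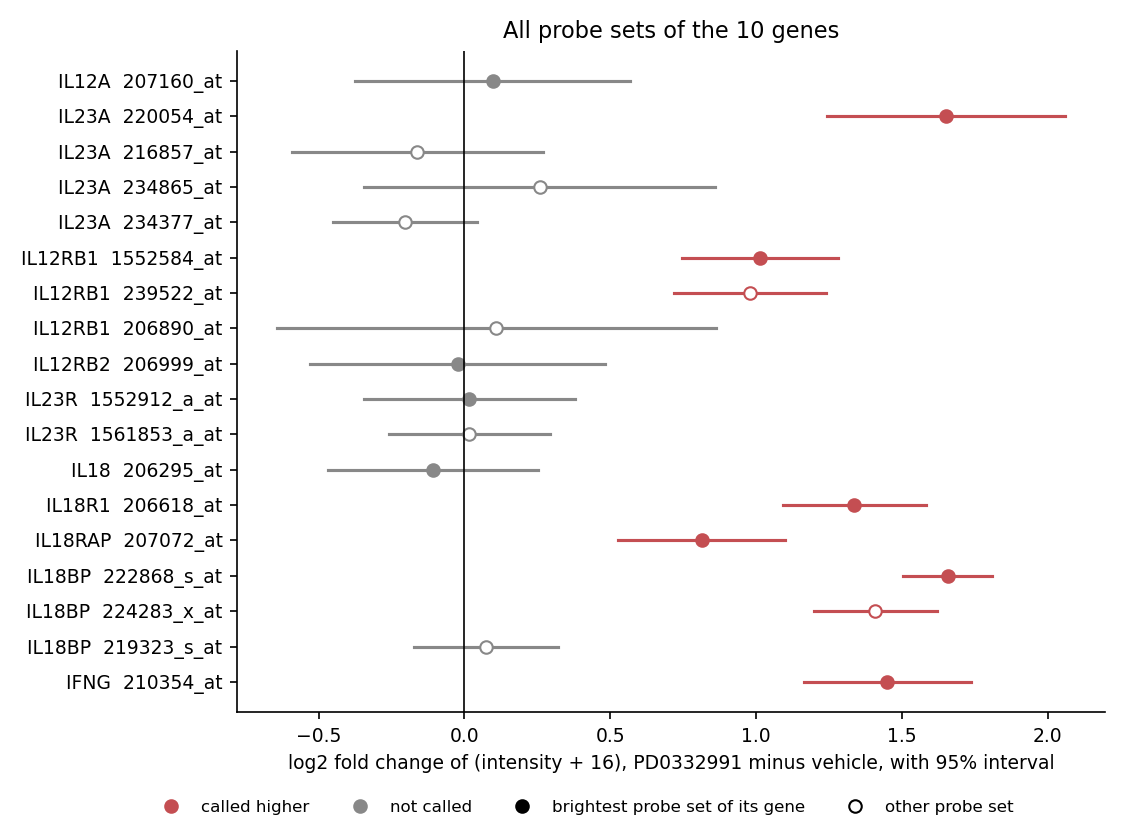
Log2 fold change of (intensity + 16), PD0332991 minus vehicle, with its 95% interval from the limma fit of all probe sets, for the 18 probe sets of the 10 genes. Filled points mark the brightest probe set of each gene and red points those called higher; 8 of 18 were called, and the dimmer probe sets of IL23A, 1 of 3 of IL12RB1 and 1 of 3 of IL18BP lie near 0.

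Counted by probe set, 8 of 18 were higher and 0 lower in limma at an adjusted p under 0.05 over all probe sets, where 10.7% were higher and 10.2% lower. At an unadjusted p under 0.05 the counts in limma were the same, 8 and 0, where 16.8% of all probe sets were higher and 15.4% lower. Ordered by size, for the probe sets standing for the genes and a pseudocount of 16, the log2 fold changes ran from IL18BP with 1.66 and IL23A with 1.65 over IFNG with 1.45 and IL18R1 with 1.34 to IL12RB1 with 1.01 and IL18RAP with 0.81. The 95% intervals of neighbours in this order overlap, their differences were not tested, and the order changes with the pseudocount and the choice of probe set.

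Promoter windows are shown for IL18BP, IL18R1, IL23A and IFNG, each a window of a gene that rose in which a searched motif was found. Windows of IL18RAP and IL18BP that also hold a motif are described below but not shown. The RefSeq table of GRCh38.p14 holds windows of 300 bases, from 250 before to 50 after a start, for 8 of the 10 genes and 15 starts in all. They were searched on both strands for GGTGTGA, bound by T-box factors such as EOMES, for TTCNNNGAA, bound by STAT factors, and for GAAANNGAA, bound by interferon regulatory factors. TGANTCA, bound by AP-1, and TTTNNCGC, bound by E2F, were searched as well. In order, 3.45%, 7.66%, 8.11%, 7.71% and 6.89% of all 35116 windows of the same length hold them. Capitals mark the matches in these windows, which run 5′ to 3′ on the strand of the gene.
IL18BP, start 3 of 4, chr11:71999367-71999666, plus strand: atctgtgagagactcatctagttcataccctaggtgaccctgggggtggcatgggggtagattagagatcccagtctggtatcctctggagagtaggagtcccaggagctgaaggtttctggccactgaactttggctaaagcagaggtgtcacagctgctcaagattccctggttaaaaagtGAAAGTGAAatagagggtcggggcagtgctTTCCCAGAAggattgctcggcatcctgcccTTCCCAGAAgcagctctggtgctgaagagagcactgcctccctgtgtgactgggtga
IL18R1, start 2 of 2, chr2:102356033-102356332, plus strand: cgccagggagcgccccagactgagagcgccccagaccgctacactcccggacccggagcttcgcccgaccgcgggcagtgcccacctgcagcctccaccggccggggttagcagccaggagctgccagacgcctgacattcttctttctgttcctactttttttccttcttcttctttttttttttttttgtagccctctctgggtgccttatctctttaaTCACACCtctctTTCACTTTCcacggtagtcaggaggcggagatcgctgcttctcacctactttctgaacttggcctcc
IL23A, chr12:56338634-56338933, plus strand: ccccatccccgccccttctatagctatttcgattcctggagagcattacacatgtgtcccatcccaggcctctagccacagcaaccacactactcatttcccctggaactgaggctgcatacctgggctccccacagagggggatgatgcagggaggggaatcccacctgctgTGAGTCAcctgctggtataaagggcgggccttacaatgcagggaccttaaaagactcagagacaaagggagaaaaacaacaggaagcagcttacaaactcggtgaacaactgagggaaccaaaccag
IFNG, chr12:68159691-68159990, minus strand: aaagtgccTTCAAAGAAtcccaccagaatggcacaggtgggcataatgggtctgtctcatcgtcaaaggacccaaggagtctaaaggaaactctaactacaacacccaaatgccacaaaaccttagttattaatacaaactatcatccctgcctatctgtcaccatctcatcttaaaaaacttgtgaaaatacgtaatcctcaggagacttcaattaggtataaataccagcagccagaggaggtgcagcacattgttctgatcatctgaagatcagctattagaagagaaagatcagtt

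The IL18BP window holds 2 copies of the STAT motif, TTCCCAGAA, whose first bases lie at −37 and −7 from the start, and the interferon regulatory factor motif GAAAGTGAA at −67. In the IL18R1 window the T-box motif lies at −29 and the interferon regulatory factor motif at −17, without overlap. IL23A holds the AP-1 motif at −77, and IFNG the STAT motif at −242. None of the 15 windows holds the E2F motif, which says only that these letters are not in these stretches. Of the windows not shown of genes that rose, 1 of 3 for IL18RAP holds the interferon regulatory factor motif. Start 2 of 4 for IL18BP holds the T-box motif, and start 1 of 2 for IL18R1 holds none of the 5. The window of IL12RB1 and both windows of IL12RB2 hold none of the 5, and that of IL12A, which did not pass, holds the interferon regulatory factor motif. A match is a run of letters, and no binding was measured.

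Among the other genes of these pathways from 5 lists, 27 of 74 measured rose, 3 fell and 44 did not pass in limma, with a median log2 fold change of 0.10. These are 36.5% higher and 4.05% lower, where 15.6% and 13.6% of all genes were. With 1 array left out, 20 to 27 of the 74 were higher, while 2170 to 3171 of the 19777 genes were. The fewest, 20, were higher without PD0332991 replicate 1, and 1 was lower without vehicle replicate 2. Of 14 measured JAK, STAT and transcription factor genes that act downstream of IL-12 and IL-23 or on IFNG, 10 rose and none fell. That is 71.4% higher, where 15.6% of all genes were higher and 13.6% lower. The median log2 fold change of the list was 0.35. Without vehicle replicate 1 or without PD0332991 replicate 1, 6 of the 14 were higher, where 11.0% and 12.9% of all genes were. At an unadjusted p under 0.05, 10 were higher and 1 lower in limma, where 20.8% of all genes were higher and 18.1% lower. The lower gene, BHLHE40, named after its value was seen, went from 807 ± 94.9 to 643 ± 34.9 (SD, n = 3 each). Its log2 fold change was −0.31 (SE 0.10, limma adjusted p = 0.0638). The list had 1 called lower without vehicle replicate 1, with median centring and with the filter on dim genes. There 10.6%, 14.3% and 29.3% of all genes were lower. A pseudocount of 64 and a trended fit also gave 1, where 15.1% of all genes were lower under each. PRDM1, which encodes the repressor BLIMP-1, went from 162 ± 21.1 to 454 ± 23.1 (SD, n = 3 each), which is a log2 change of 1.40 (SE 0.10). With the mean of its probe sets PRDM1 was at 1.01. EOMES, a T-box factor of cytotoxic lymphocytes that binds the IFNG locus, went from 198 ± 4.48 to 528 ± 31.4 (SD, n = 3 each), which is a log2 change of 1.34 (SE 0.06). STAT4, the main transducer of IL-12, rose by 0.86 and JAK2, the kinase of the IL12RB2 and IL23R chains, by 0.73 on the log2 scale (0.48 with the mean of its probe sets). TYK2, the kinase of the IL12RB1 chain, named after its value was seen, rose by 0.64 (SE 0.05). TBX21, which encodes the T-box factor T-bet, named in the same way, was dim at 34.1 with vehicle and 38.4 with PD0332991 and did not pass (0.14, SE 0.17).

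Around IL-18, 7 of 19 measured genes of precursor processing and MYD88 signalling rose (36.8%, against 15.6% of all genes), none fell and 12 did not pass. The median log2 fold change was 0.07. At an unadjusted p under 0.05, 7 were higher and 0 lower in limma, where 20.8% of all genes were higher and 18.1% lower. GADD45G and GADD45B, stress-induced activators of p38 signalling, had log2 fold changes of 1.28 (SE 0.30) and 1.14 (SE 0.08). GADD45G came from 15.9 ± 10.7 with vehicle and reached 58.9 ± 14.7 with PD0332991 (SD, n = 3 each). It lost its call without PD0332991 replicate 1 or 2 (limma adjusted p = 0.0789 and 0.0723) and with a pseudocount of 1 (0.0849), and GADD45B was at 0.30 on a probe set whose ID does not end in _x_at or _s_at. The inflammatory caspase gene CASP4 rose by 0.68 and GSDMD, the pore-forming protein it cleaves, by 0.62. CASP1, the protease that matures IL-18, and MYD88, the adaptor of the receptor, rose by 0.58 and 0.48 and are named after their values were seen. CASP1 was at 0.99 on a probe set whose ID does not end in _x_at or _s_at.

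Of 13 other cytokine and receptor genes of the IL-12 and IL-1 families, 2 rose, 2 fell and 9 did not pass. At 15.4% in each direction, these shares are near the 15.6% and 13.6% of all genes. The median log2 fold change was 0.03. EBI3, whose product pairs with that of IL12A in IL-35 and with IL27 in IL-27, read 7.81, 11.8 and 16.1 with vehicle and 31.7, 42.5 and 41.0 with PD0332991. Its log2 fold change was 0.97 (SE 0.14), 1.65 with a pseudocount of 1 and 0.43 with 64. IL27RA, the receptor chain for IL-27, rose by 0.62, and by 0.38 with the mean of its probe sets. IL1RAP, the co-receptor of IL-1 and IL-33, fell by 0.49, and IL6ST, the gp130 chain that IL-27 also uses, fell by 0.21. IL1RAP lost its call without vehicle replicate 1, 2 or 3 (limma adjusted p = 0.0692, 0.0653 and 0.0528). For IL6ST the call was lost when any 1 of vehicle replicates 1 and 2 and PD0332991 replicates 2 and 3 was left out (0.0777 to 0.109), among other settings. No gene of this list was lower without vehicle replicate 1 or without vehicle replicate 2.

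Among the receptor genes of interferon gamma, IFNGR2 fell and IFNGR1 did not pass. IFNGR2, the signalling chain of the receptor, read 583, 577 and 633 with vehicle and 399, 402 and 407 with PD0332991, lower on every PD0332991 array. Its log2 fold change was −0.55 (SE 0.06, limma adjusted p = 0.0011). IFNGR1, the ligand-binding chain, named after its value was seen, was at 0.09 (SE 0.05) and did not pass. Of 9 measured genes of the receptor and its signalling, 4 rose, 1 fell and 4 did not pass. These are 44.4% higher and 11.1% lower, where 15.6% and 13.6% of all genes were. The median log2 fold change was 0.15. IRF9, a subunit of the interferon-stimulated transcription complex, rose by 1.02, JAK1, a receptor kinase, by 0.54 (0.36 when its probe sets were averaged) and JAK2 as above.

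Of 20 genes induced by interferon gamma, 5 rose, none fell and 15 did not pass. The share that rose was 25.0%, against 15.6% of all genes. The median log2 fold change was 0.07. At an unadjusted p under 0.05, 6 were higher and 0 lower in limma, where 20.8% of all genes were higher and 18.1% lower. The guanylate-binding protein gene GBP4 went from 93.4 ± 14.1 to 209 ± 1.78 (SD, n = 3 each), which is a log2 change of 1.05 (SE 0.10). WARS1, an interferon-induced tRNA synthetase gene, rose by 0.92 and the transcription factor gene IRF1 by 0.71. IRF8 rose by 0.47 (SE 0.12). Leaving out any 1 of replicates 1 and 2 of either group ended its call (limma adjusted p = 0.0865 to 0.0964) and left 3 of the 20 higher, where 11.0% to 12.9% of all genes were. The interferon gamma chemokine genes CXCL9, CXCL10 and CXCL11, named after their values were seen, averaged 31.1, 13.7 and 10.0 with vehicle and 29.8, 10.6 and 9.81 with PD0332991.

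**Figure D3:**
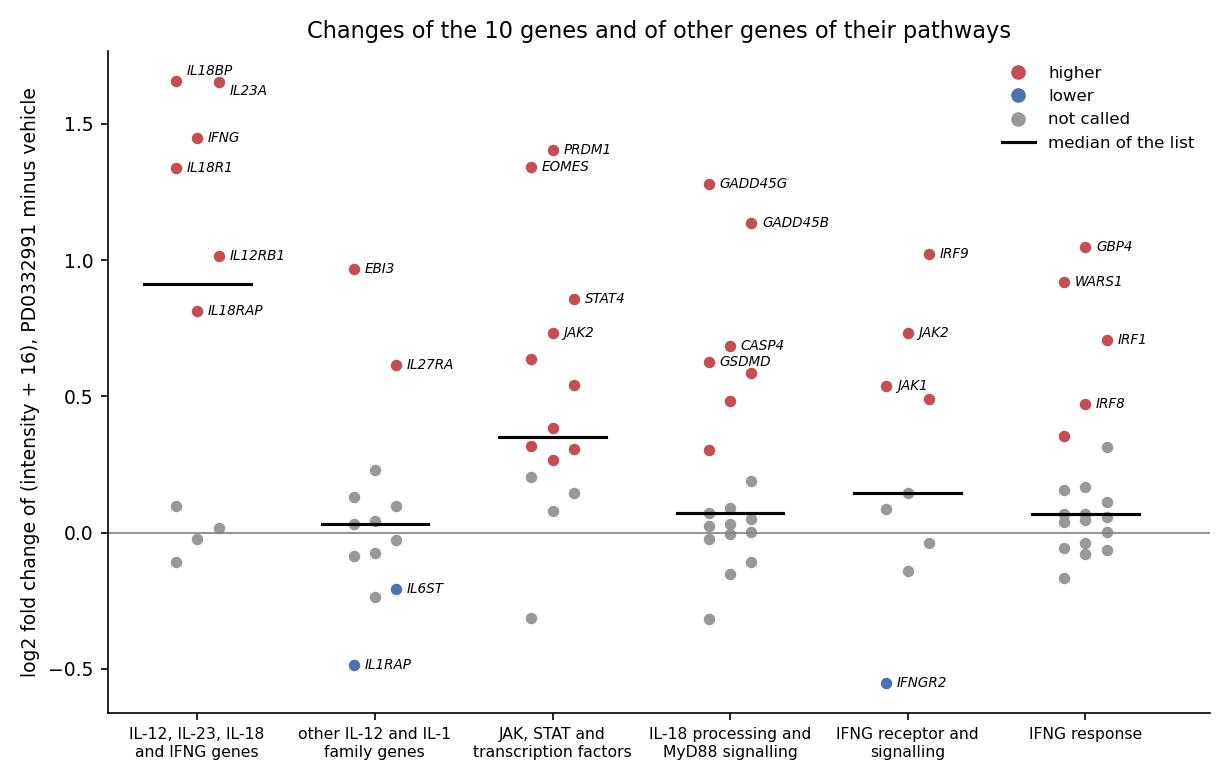
Log2 fold change of (intensity + 16), PD0332991 minus vehicle, for the 10 genes and for 5 lists of other genes of their pathways, 1 point per gene; red points rose, blue points fell and grey points did not pass, and the black line is the median. JAK2 is in 2 lists; the medians of the lists lie at 0.91, 0.03, 0.35, 0.07, 0.15 and 0.07 from left to right.

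The profile of IL18BP over the 6 arrays was most like those of PGAP3, TRIB2, TMEM154, FYTTD1 and LONRF2, by Pearson r from 0.9993 to 0.9998 over 9887 genes above the median level. With 2 groups of 3 arrays this mainly reads the step between groups, and 418 genes had an r over 0.99. PGAP3 went from 121, 123 and 126 with vehicle to 205, 209 and 208 with PD0332991, a log2 fold change of 0.68.

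The T-lineage label was checked against markers. CD3D and CD1E, the brightest of 14 measured T-lineage and T-ALL markers, averaged 7656 and 6499 with vehicle and 8065 and 7135 with PD0332991, and neither passed. Among the 14, however, 9 rose and none fell, which is 64.3% higher, where 15.6% of all genes were. The summed intensity of the 14 was 39999 to 42886 with vehicle and 50503 to 51390 with PD0332991. The summed intensity of 6 NK cell markers was 188 to 198 with vehicle and 182 to 200.1 with PD0332991, with none called in limma and none at an unadjusted p under 0.05, and NCR1 and NCAM1 were the brightest at 73.9 and 36.3 with vehicle. The sum of 7 myeloid markers was 293 to 334 with vehicle and 285 to 302 with PD0332991, where the means of CD14 and LYZ were below 16 in both groups, MPO and CSF1R were the brightest at 104 and 76.4 with vehicle, MPO fell by 0.26 and CD163, below 16 with vehicle, rose by 0.44. CD14, LYZ and CD163 are named after their values were seen. The sum of 5 B cell markers was 596 to 694 with vehicle and 900.4 to 1077 with PD0332991, and CD79A and BLK, its brightest, rose by 0.94 and 0.39. Of the other B cell markers, named after their values were seen, CD79B, PAX5 and MS4A1 did not pass, and their means went from 40.1 to 43.8, from 37.1 to 34.9 and from 49.5 to 38.7. The part of these markers in the results was not tested. Across all arrays the mean after trimming 2% at each end was 282 to 294, and arrays correlated across genes, which are not independent replicates, at r 0.993 to 0.996 within and 0.976 to 0.979 between groups.

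**Figure D4:**
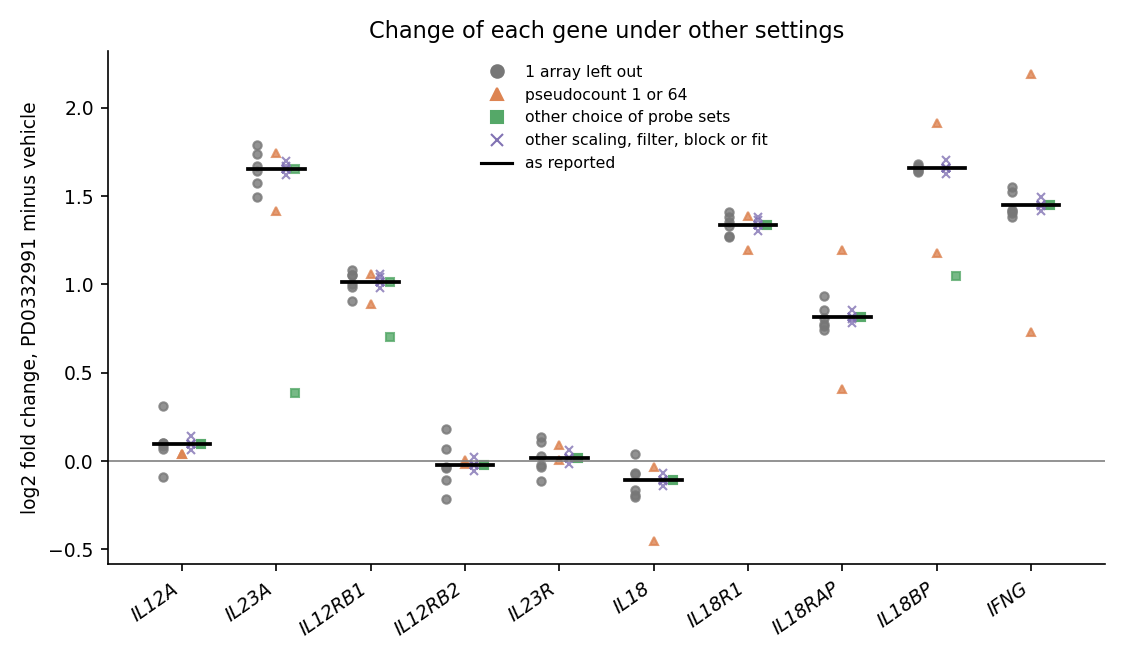
Log2 fold change of each of the 10 genes (black line) with its value when 1 array is left out (circles), with a pseudocount of 1 or 64 (triangles), with other choices of probe sets (squares) and with other scalings, filter, block or fit (crosses). The 6 genes that rose stay above 0 throughout, from 0.39 for IL23A with the mean of its probe sets to 2.19 for IFNG with a pseudocount of 1.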

How the data were processed

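Total RNA was biotin-labelled and hybridised to 6 Affymetrix arrays, as the labels' protocols say. The authors deposited 1 intensity for each probe set and array. Their summarisation and scaling are not given in the sources used here. The values show a linear scale. Values were used as log2(intensity + 16) without further normalization, after removal of 62 control probe sets. Among the 54613 others, 41091 had 1 symbol in the platform annotation, 1801 several and 11721 none. Current symbols came, by gene ID, from RefSeq's gene table of GRCh38.p14, and 54 probe sets found no match. Gene IDs defined 19777 genes.

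PD0332991 and vehicle arrays were compared in limma 3.58.1 under R 4.3.3 (lmFit, eBayes, two-sided, 4 residual degrees of freedom), adjusted by Benjamini-Hochberg over all genes, or over all probe sets for single probe sets. Every adjusted p is from limma, and calls use 0.05. The code was tested on simulated data. Figures were drawn with matplotlib 3.10.9.

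The 10 genes, the pathway and marker lists and the tests were chosen with earlier results of these data known, so counts over them are descriptions. Genes named by rule were the 10, IL12B, up to 4 with the largest changes per pathway list, up to 2 called against the direction of most, the 2 brightest markers per cell type, and the 5 genes most like the member with the largest change. Outside the rule, IL1RL1 was named as the neighbour of IL18R1. The genes marked so in the text were named after their values were seen. Of 78 pathway genes, 74 were measured, and the other 4, and 5 of 37 markers, were not analysed here. Alternatives were a block for the replicate number, leave-one-out of each array, 3 scalings, a filter on dim genes, 2 other choices of probe sets, pseudocounts of 1 and 64, a trended fit, a threshold of 0.01 and a fit of all probe sets.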

Additional observations from a re-analysis of the deposited data

How the results depend on the processing

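All 6 genes that rose kept direction and call under every alternative in which they were measured, including each array left out (6 called in each), and their highest adjusted p over the alternatives was 0.0173 (IL18RAP) in limma. The filter on dim genes is no check of IL18BP, which passed it only through its PD0332991 level, and IL18RAP and IFNG did not pass it. IL18BP has no probe set without _x_at or _s_at, so 5 of 9 were called there, where 13.8% of all genes were higher. In no setting was any of the 10 called lower. Treating the replicate number as a block left all 6 called, with the highest adjusted p at 0.0083 (IL18RAP). Deviations of same-numbered arrays correlated at 0.0034, 0.0758 and 0.0827 for numbers 1, 2 and 3. Numbers 2 and 3 correlated best with their own number, and number 1 did not. Whether the numbers pair the arrays was not tested. For the pathway genes, the block gave 22 higher and 2 lower, against 27 and 3. Of all genes, 12.7% were higher and 11.5% lower with the block, against 15.6% and 13.6% without it. Among the genes named, the block ended the calls of IL6ST and IRF8.

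Signs of dim genes that never passed turned around 0. IL12RB2 was at 0.021 with 75th percentile centring, 0.0080 with a pseudocount of 1, and between −0.21 and 0.18 with 1 array left out. IL23R was at −0.017 with median centring and between −0.12 and 0.14 with 1 array left out. With 1 array left out, IL18 ranged from −0.20 to 0.040, IL12A from −0.091 to 0.31 and TBX21 from −0.034 to 0.32. Pathway genes called lower numbered 6 of 49 with the filter on dim genes, 5 with a trended fit, 1 at a threshold of 0.01, and 1 to 3 with 1 array left out (1 without vehicle replicate 2). Of all genes, 29.3% were lower with that filter, 15.1% with the trended fit and 8.78% at the threshold of 0.01. With 1 array left out, 10.5% to 12.7% of all genes were lower. A threshold of 0.01 is stricter by construction, and the cause of the other differences was not tested. The values carry no detection calls, which limits what can be said of IL12A, IL12RB2, IL23R, IL18 and the vehicle level of IFNG.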
